A study of Drosophila melanogaster with 12 samples.

Results

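In heads of flies fed pentylenetetrazole (PTZ), 13 genes had a low log2 ratio on each of the 4 arrays of 12 hrs and of the 2nd day in which PTZ RNA carried the dye Cy5, here called forward arrays. They were chosen by that measurement alone. A probe is printed as 2 adjacent spots, which were averaged into 1 feature, and the median of each array was subtracted. A gene entered the set when its feature stood at -0.4 or less on replicates 1 and 2 of both times, a ratio of 0.758 or less, and had 1 gene symbol. Of 2101 features with 1 symbol and a value on all 4 arrays, 13 (0.619%) met this rule, and of all 3581 features with such values, with or without a symbol, 24 (0.67%) did. The 13 include the sex determination gene dsx, the channel gene Shab, SKIP, whose protein binds a channel, and the growth factor gene grk. The others are the stress and nutrient regulators Atf6 and sug, the RNA-binding protein gene Imp, Alms1b, CG2063, CG12054, spin, Gbs-76A and Cyp4d8.

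The flies were unmated Oregon-R wild type males, 3 to 4 days old when treatment began, with 30 in a vial. The treated group ate food with PTZ at 8 mg per ml for 12 hrs, to the 2nd day or to the 7th day, and its control group ate the same normal food (NF) without the drug for as long. Each array set pooled heads of PTZ flies against pooled heads of NF flies in 2 colours, with 4 arrays described as biological replicates at each of the 3 times, and vials rather than single flies were the source of the RNA. On replicates 3 and 4 the dyes were exchanged (swapped arrays), and the labels of 12 hrs replicates 3 and 4 and of 2nd day replicate 2 contradict themselves on dye or treatment, so that their orientation was taken from the titles, the treatment text and the methods.

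PTZ blocks GABA-gated chloride channels and thereby removes inhibition from neurons. Voltage-gated potassium channels return a neuron to rest after each spike, and the proteins bound to them set how many channels act and how fast. A cDNA array measures the relative amount of transcript in 2 RNA pools, so that a lower ratio in whole heads can come from fewer cells of a type or from less RNA per cell, and these cannot be told apart here.

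A negative value on a forward array means more Cy3 than Cy5 signal, the likely reading since the scanner software gives red over green, and so likely less transcript in PTZ heads than in NF heads. The sources used here do not say whether the submitters had already reversed the swapped arrays to run in the same direction. Swapped values are therefore printed as deposited, and turning them exchanges the sign. The arrays had values for 3088 to 9051 features. Over all features the 12 hrs pair of forward arrays correlated with r = 0.427 and the 2nd day pair with 0.727, while the swapped pairs of the same times gave 0.131 and 0.166. The 2 spots of a feature correlated least on 12 hrs replicate 3 (r = 0.154, against 0.413 to 0.812 on the other 11 arrays), and on the 7th day the 2 forward arrays correlated with r = -0.139.

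The gene dsx encodes a transcription factor whose male and female splice forms direct somatic sexual differentiation. It had the lowest forward mean and the lowest 2nd day values of the set, while at 12 hrs other members such as grk and CG2063 were lower on single arrays. Its log2 ratios were -0.75 and -0.60 at 12 hrs and -1.23 and -1.33 on the 2nd day, a mean of -0.98 ± 0.36 (SD, n = 4 arrays) or a ratio of 0.508. The swapped arrays of the 2nd day stood near 0, at -0.05 and -0.17, and 12 hrs replicate 4 read -0.52, with no value on replicate 3. On the 7th day only replicate 1 measured it, at -0.22. Of the other genes of sex determination, tra2 and fru had no value on the forward arrays of 12 hrs or of the 2nd day and tra had none on any array.

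The potassium channel group held SKIP, which encodes a protein that binds the Shal potassium channel, and Shab, the pore-forming subunit of the fly's Kv2 channel. SKIP read -0.60 and -0.57 at 12 hrs and -0.94 and -0.81 on the 2nd day on forward arrays. It was the only member above 0 on each swapped array of both times, with 0.24, 0.51, 0.31 and 0.22. The other SKIP features had a single value on these arrays, -0.15 on 2nd day replicate 4. Shab read -0.62 and -0.48 at 12 hrs and -0.46 and -0.54 on the 2nd day, whereas its swapped arrays disagreed at 12 hrs, with 0.47 and -0.05, and gave 0.10 and 0.35 on the 2nd day. The gene of the partner itself, Shal, was measured on 3 arrays only, at 1.11, 0.27 and -0.12 on 2nd day replicates 1, 3 and 4, so that its 1 forward value was high. Of the related channel genes, Sh (Shaker) had 2 features with all forward values, with means of -0.12 and -0.36, and the rest of this group had no complete set of them. This list was drawn up after the members were known. In the list of ion channels and excitability genes, 5 features had all forward values, 1 of them Shab, which the rule chose for being low, and 5 of 5 had a forward mean below 0, as did 53.0% of all 3581 features, with a median of -0.12 against -0.01 over all. Some lists without a member looked alike, with 8 of 8 features below 0 for transcription and chromatin (median -0.16) and 5 of 5 for signalling pathways (median -0.11). Others did not, with 8 of 13 for lipid and sterol metabolism (median -0.04) and 0 of 5 for muscle (median 0.07).

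The gene grk encodes gurken, a TGF-alpha-like ligand of the EGF receptor best known from the patterning of the egg. It read -0.86 and -0.57 at 12 hrs and -0.53 and -0.64 on the 2nd day. On swapped arrays it stood at 0.36 and 0.22 at 12 hrs but at -0.25 and -0.09 on the 2nd day, so that the 2 times lay on opposite sides of 0. No other gene of the EGF receptor ligand list had a value on all forward arrays.

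Atf6, a transcription factor held in the membrane of the endoplasmic reticulum until unfolded proteins release it, was among the most even members, with -0.57 and -0.64 at 12 hrs and -0.57 and -0.57 on the 2nd day. The swapped arrays gave 0.15 and 0.36 at 12 hrs and 0.19 and -0.0035 on the 2nd day. A separate feature of Atf6 read -0.16, -0.39, -0.46 and -0.49 on the forward arrays, a mean of -0.37, below 0 on each but short of the threshold on the 2 arrays of 12 hrs. Of the other genes of the unfolded protein response, crc, the fly homologue of ATF4, averaged -0.12, while PEK, the kinase that acts upstream of it, had no forward value at 12 hrs and -0.63 and -0.47 on the 2nd day.

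The gene sug (sugarbabe) encodes a zinc finger transcription factor induced by dietary sugar. Its forward values were -0.59 and -0.48 at 12 hrs and -0.70 and -0.56 on the 2nd day. On swapped arrays it behaved like grk, with 0.27 and 0.45 at 12 hrs and -0.17 and -0.16 on the 2nd day. The remaining genes of the sugar response list had no complete set of forward values.

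Imp encodes an mRNA-binding protein that acts with its opposite number Syp in timing the fates of fly neurons. The member feature read -0.54 and -0.42 at 12 hrs and -0.47 and -0.56 on the 2nd day. Its swapped arrays, in the same order, gave 0.27, 0.03, -0.13 and -0.13. The low values were not shared by all features of the gene. A pair of other Imp features averaged -0.23 and -0.06 on the forward arrays, and both stood above 0 on 12 hrs replicate 1, at 0.05 and 0.06, where the member read -0.54. Syp averaged -0.39. In the list of RNA-binding and processing genes, which holds the Imp member, 14 of 15 features had a forward mean below 0 against 53.0% of all features, with a median of -0.23. The share was like that of the transcription and chromatin list and the signalling list above, which held no member, though not like that of all such lists.

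**Figure D1:**
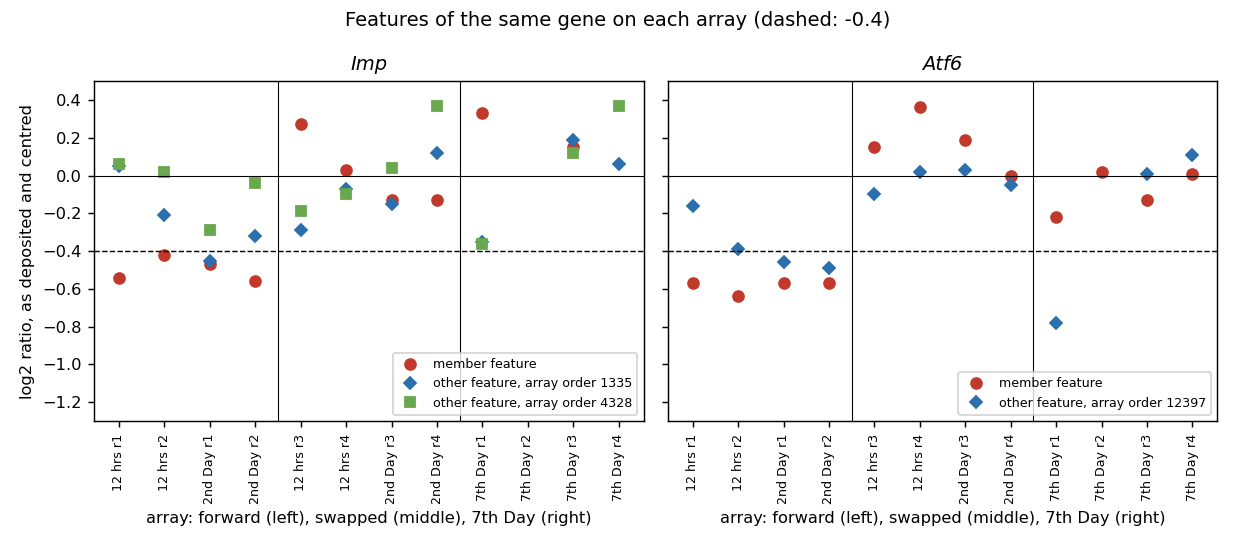
Log2 ratio (vertical axis, as deposited and centred) of each feature of Imp and of Atf6 on each array (horizontal axis: forward arrays of 12 hrs and 2nd day, their swapped arrays, then the 7th day). Points are single arrays, circles are the member features, and the dashed line is the threshold of -0.4. The second Atf6 feature lies below 0 on all 4 forward arrays at left, with a mean of -0.37, while the other Imp features average -0.23 and -0.06.

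Alms1b is a fly counterpart of the human gene of Alström syndrome, which encodes a centrosomal protein. It read -0.46 and -0.53 at 12 hrs and -0.86 and -0.61 on the 2nd day, and its swapped arrays gave -0.28, 0.06, -0.10 and -0.31. CG2063 read -0.54 and -0.90 at 12 hrs and -0.58 and -0.52 on the 2nd day. Of the 11 features that met the values of the rule but had no single symbol, 1 lies next to CG2063 on the array and read -0.48 and -0.82 at 12 hrs and -0.65 and -0.61 on the 2nd day. CG12054 was the least low by mean, with -0.45 and -0.47 at 12 hrs and -0.54 and -0.49 on the 2nd day, and its swapped values changed side between the times as those of grk did, with 0.28 and 0.15 and then -0.16 and -0.04.

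The lysosomal transporter gene spin averaged -0.64 on the forward arrays and was the only member below 0 on all 4 swapped arrays of 12 hrs and 2nd day. A separate spin feature read -1.46 and 0.02 on 12 hrs replicates 3 and 4. Gbs-76A, the gene of a glycogen-targeting subunit of protein phosphatase 1, averaged -0.57 on the forward arrays, and its swapped arrays gave -0.50 and -0.30 at 12 hrs and 0.16 and 0.17 on the 2nd day. The cytochrome P450 gene Cyp4d8 averaged -0.55.

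**Figure D2:**
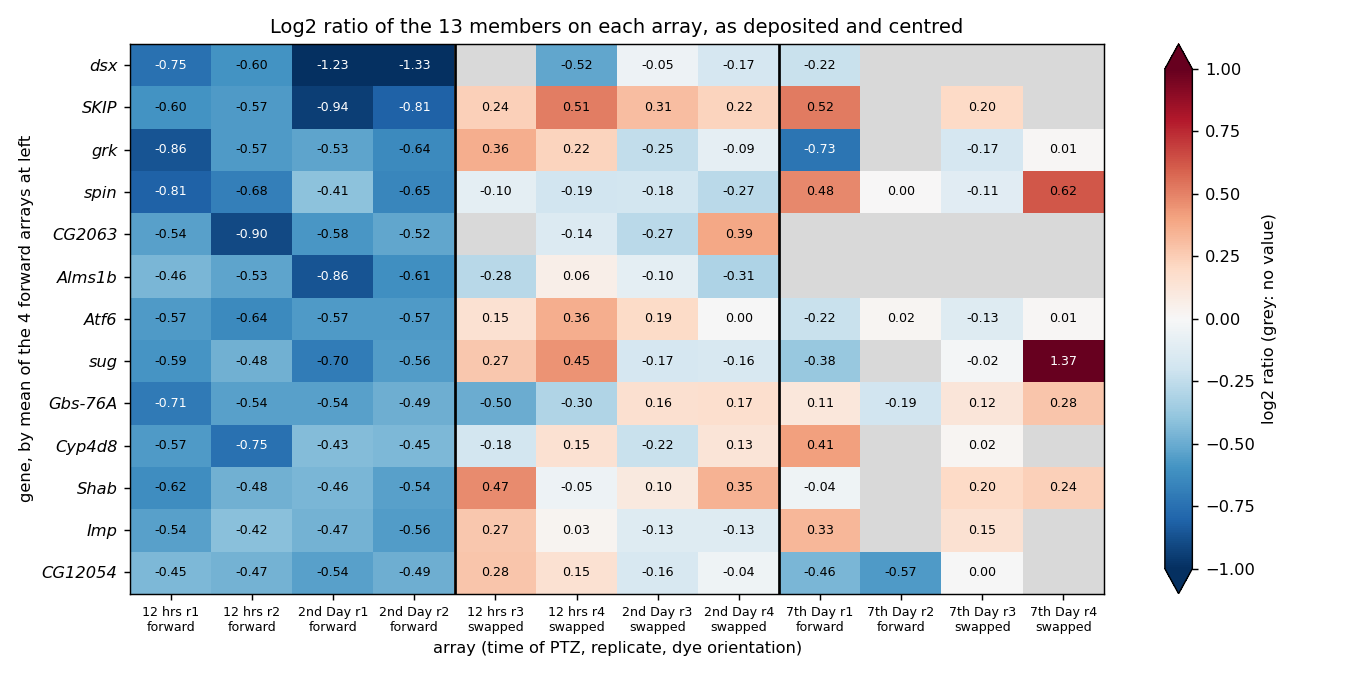
Log2 ratio of the 13 members (rows, ordered by their forward mean) on each of the 12 arrays (columns, r is the replicate), as deposited and centred on the array median. Blue is below 0, red above 0 and grey has no value, and the colour scale ends at -1 and 1. The 4 columns at left chose the members and are all at -0.41 or lower, while the columns to their right hold both signs, apart from 7th day replicate 4, where the 6 members measured lie above 0.

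Among the members the forward mean ran from -0.98 for dsx to -0.49 for CG12054. Between the times 6 members were lower on the 2nd day than at 12 hrs and 7 were higher, and the median of the members was -0.61 at 12 hrs and -0.55 on the 2nd day. The differences of dsx (-0.61), SKIP (-0.29) and Alms1b (-0.24), 2nd day minus 12 hrs, were the most negative, and those of spin and Cyp4d8 (0.22 each) the most positive. The 2 spots of a feature lay a median of 0.13 apart over the 52 forward values, with the widest gap, 0.46, for Gbs-76A on 12 hrs replicate 1. Just inside the threshold were spin, Imp and Cyp4d8, with highest forward values of -0.413, -0.418 and -0.426, and just outside it were par-6, CG8312 and Cyp4d21, with -0.398, -0.394 and -0.392.

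The swapped arrays, which the rule did not use, did not carry the low values of the set at both times in either reading. At 12 hrs, 6 of the 11 members with both swapped arrays lay above 0 on both (29.9% of all features did) and 2 of 11 below 0 on both (30.7%). On the 2nd day the balance was the other way, with 7 of 13 below 0 on both (27.7%) and 3 of 13 above (26.5%). Over the 4 swapped arrays 1 of 11 members was below 0 throughout (12.3%) and 1 of 11 above 0 throughout (9.58%). Read as deposited more members lay below 0 than above on the 2nd day only, and with these arrays turned at 12 hrs only. A crossing, above 0 on both at 12 hrs and below 0 on both on the 2nd day, was seen in grk, sug, Imp and CG12054, 4 of 11 members, against 5.96% of all features. This pattern was not among the planned tests and was not tested, and it uses 12 hrs replicate 3. Most of the 11 features that met the values of the rule without a single symbol were also above 0 on both at 12 hrs. Among them only a feature with 0.47 and 0.24 and then -0.58 and -0.61 crossed. No other of them was below 0 on both swapped arrays of the 2nd day. On 12 hrs replicate 4 alone, without the array whose spots repeated least, 8 of 13 members were above 0, with a median of 0.06.

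**Figure D3:**
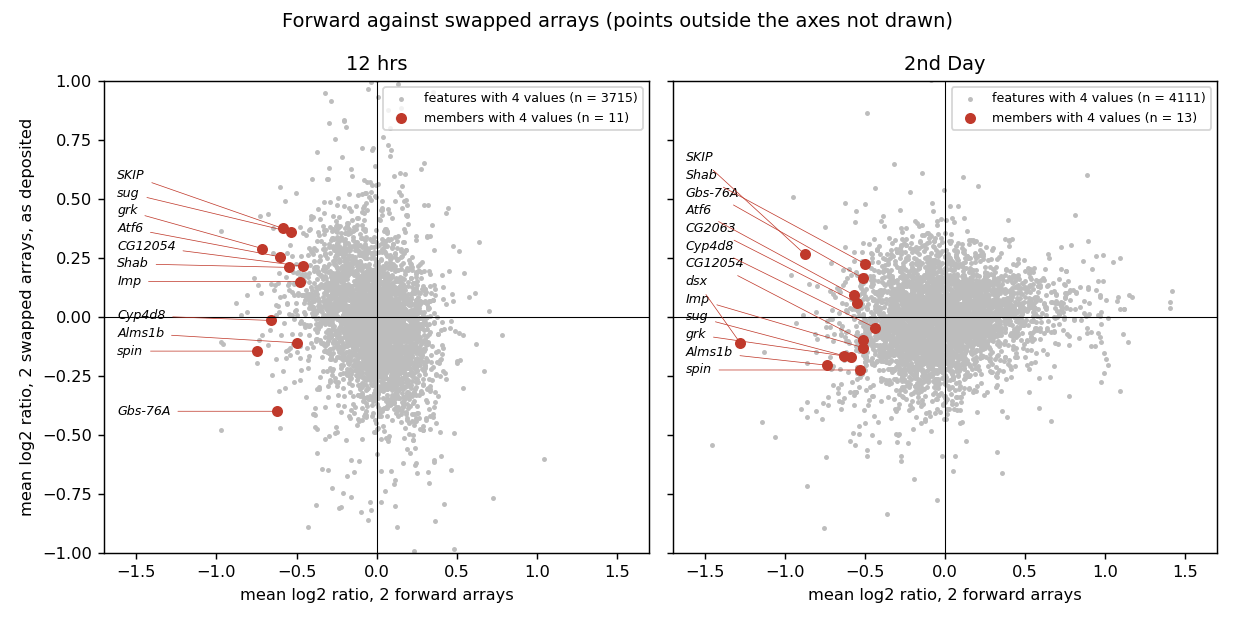
Mean log2 ratio of the 2 swapped arrays as deposited (vertical axis) against that of the 2 forward arrays (horizontal axis) at 12 hrs (left) and on the 2nd day (right). Grey points are all features with 4 values and red points are members, which lie at left by the rule. At 12 hrs 7 of the 11 red points lie above 0 on the vertical axis and on the 2nd day 5 of 13 do.

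None of the members that could be tested on arrays outside the rule passed. The tests given here and for the 7th day left out dsx and CG2063. Both had no value on 12 hrs replicate 3, too few values over the swapped arrays and too few on the 7th day, so that these tests say nothing of them. An alternative fit on the 2nd day's swapped arrays alone covered all 13 members and called 0 of them, and 21 of 4686 features. Limma, fitted over the 6 swapped arrays with Benjamini-Hochberg adjustment over all features, called 0 members of 11 and 0 of 4520 features (0.0% in each direction) at 12 hrs, where 254 features lay lower and 326 higher with an unadjusted p under 0.05. The median of the tested members was 0.21, against -0.01 over all features. SKIP had a mean of 0.37 ± 0.12 (SE, 2 arrays, limma adjusted p = 0.376) and grk 0.29 ± 0.11 (SE, limma adjusted p = 0.376), both with the sign opposite to their forward arrays as deposited. Gbs-76A had -0.40 ± 0.11 with the same adjusted p. On the 2nd day 0 of 11 members and 0 of 4232 features (0.0%) were called, with an unadjusted p under 0.05 for 144 lower and 73 higher ones, and the member median was -0.10. The difference of the 2nd day minus 12 hrs on the swapped arrays gave 0 of 11 members and 0 of 3791 features (0.0%), with 132 lower and 112 higher unadjusted, although 9 of the 11 members were below 0, as were 47.9% of all features. It was -0.46 ± 0.15 for grk (SE, limma adjusted p = 0.748) and -0.53 ± 0.39 for sug (SE, limma adjusted p = 0.815). The largest difference had the other sign, 0.57 ± 0.15 for Gbs-76A (SE, limma adjusted p = 0.748).

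On the 7th day, which the rule did not use, the members' values lay on both sides of 0 on the array that measured most of them. Replicate 1, a forward array, measured 11 of them, of which 6 were below 0 (50.0% of all features), 2 at -0.4 or less, grk at -0.73 and CG12054 at -0.46 (18.6%), and 3 at 0.4 or more, SKIP at 0.52, spin at 0.48 and Cyp4d8 at 0.41 (18.2%). Other features of these genes differed on replicate 1, with 0.20, -0.55 and 0.29 for SKIP and -0.24 for spin, and that of Cyp4d8 had no value there. Replicate 2 measured 4 members and put CG12054 alone below -0.4, at -0.57. On the swapped arrays sug stood apart with 1.37 on replicate 4, an array whose own deposited median was -0.639 before centring, against -0.02 on replicate 3. Tested with limma, 0 of 4 members and 0 of 2944 features (0.0%) were called on the 2 forward arrays, with 52 lower and 21 higher unadjusted, and CG12054 averaged -0.52 ± 0.30 (SE, 2 arrays, limma adjusted p = 0.999). Over all 4 arrays 0 of 7 members and 0 of 4316 features (0.0%) were called in either reading, with 75 lower and 20 higher unadjusted when the swapped arrays were turned and 178 lower and 80 higher as deposited. Turned, 7 of the 7 tested members averaged below 0 (56.8% of all features did), with a median of -0.16 against -0.03 over all features. As deposited, 3 of the 7 did, with a median of 0.08. CG2063 and Alms1b had no value on that day.

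The members lay in stretches of the array that were themselves low on the forward arrays. The median of the 20 nearest measured features in printing order, averaged over the 4 forward arrays, was below 0 for 13 of 13 members and for 48.7% of all features, with a median of -0.21 for members against 0.0 for all. It was lowest around Cyp4d8 (-0.40) and Imp (-0.30) and closest to 0 around dsx and Gbs-76A (-0.05 each) and SKIP (-0.08). All members stood at positions 5881 to 13075 of 13824, a range whose start 45.4% of the 2101 features reach or pass, and Atf6 and CG12054 were 3 steps apart and grk and Shab 33. With the neighbours' median subtracted, 1 member, dsx, still met the rule, at -0.69, -0.69, -1.24 and -1.10, while CG12054 read 0.04 on 12 hrs replicate 1 and Cyp4d8 lay between -0.22 and -0.08. A single array kept each of 6 others out, namely SKIP (-0.34), Gbs-76A (-0.39), grk (-0.32), sug (-0.26), spin (-0.24) and Atf6 (-0.10). The part of position on the array in the low values was not tested further.

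**Figure D4:**
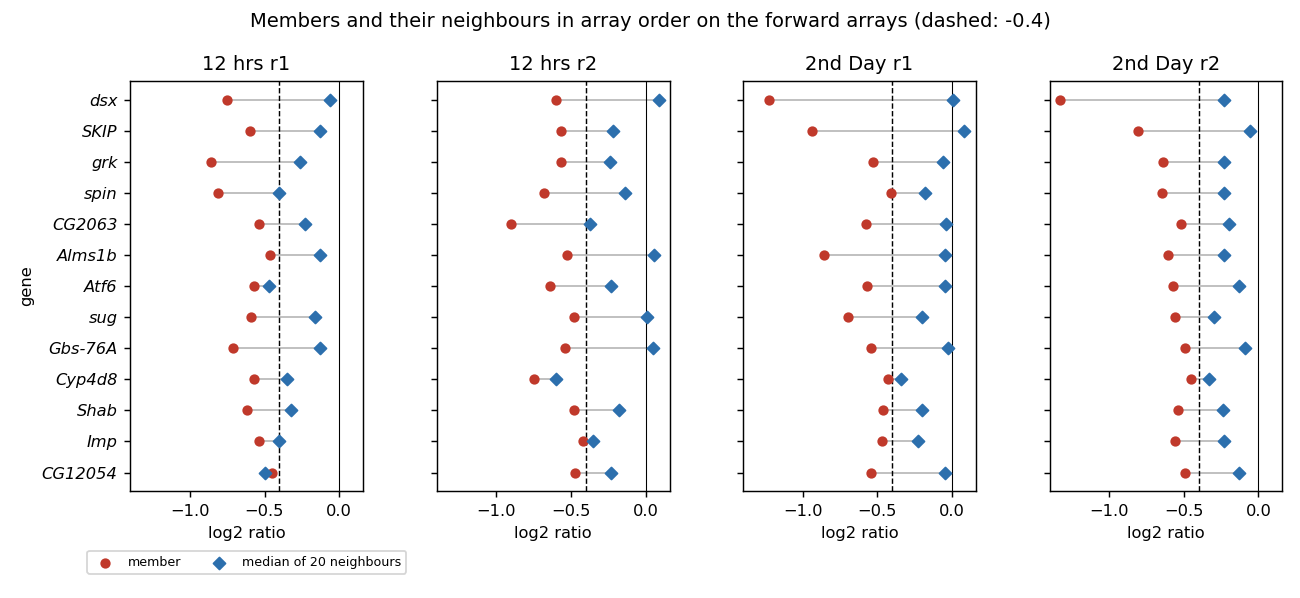
Log2 ratio (horizontal axis) of each member (circles) and the median of its 20 nearest measured features in printing order (diamonds) on the 4 forward arrays that chose the members, 1 panel per array. The dashed line is the threshold of -0.4. The diamonds of Cyp4d8 and Imp lie near their circles, with neighbour means of -0.40 and -0.30, and those of dsx near 0, with -0.05.

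None of the 8 marker lists, for neurons, glia, photoreceptors, head fat body, muscle, haemocytes, gut and male reproductive tract, held a member. They had few features with all forward values, the only ones that could enter the set. There were 3 for glia, 5 for muscle, 1 for haemocytes, 2 for gut and 0 for neurons and for the male reproductive tract. Of all features with 1 symbol and such values 0.619% met the rule, so that so few cannot show a lack of members. The head fat body list was the lowest of the marker lists on the forward arrays, with a median of -0.73 over 5 features, 3 of them below 0, and a range of -0.86 to 0.24. It was also below 0 on the swapped arrays as deposited, with a median of -0.34 and 5 of 5 features below 0. Photoreceptor genes had a median of 0.11 over 6 features on the forward arrays. Of the neuronal markers 2 of 12 genes had a feature listed with 1 symbol and 0 had all forward values. The part of the cell types in the members' values was not tested.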

How the data were processed

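The authors scanned 2-colour cDNA arrays, quantified them in GenePix Pro 6.0, normalized them by ratio in Acuity 4.0 and removed spots that were dim, saturated, flagged or close to background. The deposited values are log2 ratios of 27648 spots on 12 arrays, which the series text describes as biological replicates. The scale is log2 by range, centre and direction of the swapped arrays are not given, and the medians of the arrays lay between -0.639 and 0.164. From these, pairs of adjacent spots were averaged, array medians subtracted, and means tested with limma 3.58.1 in R 4.3.3, 2-sided, at an adjusted p of 0.05. The fit over the 6 swapped arrays required both arrays of a time and at least 4 in all, and that of the 7th day 3 of 4. The steps were tested on simulated data. The number of arrays limits the precision.

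The 4 forward arrays of the rule were not tested, since they chose the members. Of the spots, 15116 had 1 symbol in the platform annotation, 102 several and 12430 none listed, and gene IDs gave current names in the Release 6 annotation to 7447 of the 7558 features with 1 symbol. Its coordinates are not used. The members and lists were chosen with earlier results of these data known, and 6 lists of genes related to members were added after the members were seen. Named were all 10 members, beside spin, Gbs-76A and Cyp4d8 in brief, and the 3 features on either side of the threshold. Genes of the added lists are named beside the member they relate to. Alternatives were centring, scaling, neighbour subtraction, both spots, averaging per gene, separate fits, a replicate block, a dye coefficient, SAM, other thresholds and leaving out each array.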

Additional observations from a re-analysis of the deposited data

How the results depend on the processing

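No member was called in any of 55 alternative fits, and 296 of 323 values of single members kept their sign. Some of these values could not change. Separate fits and the replicate block leave the mean as it was, as does averaging per gene for a gene with a single feature. The set itself depended on the rule: it held 39 genes at a threshold of -0.3, 5 at -0.5, 7 with both spots at or under the threshold, 1 (dsx) after neighbour subtraction, 12 without centring and 18 with arrays scaled, of which 9 of the 13 members were in each of these last 2, and 17 to 37 with 1 forward array left out, 37 without 12 hrs replicate 1 and 32 without replicate 2.

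The member median on the swapped arrays of 12 hrs was -0.03 after neighbour subtraction. It was 0.06 without replicate 3 (over 13 members) and 0.24 without replicate 4, against 0.21 with both (over 11 members each). The value without replicate 3 also covers dsx, at -0.52 on replicate 4, and CG2063, at -0.14, so that the member sets differ. On the 7th day, forward arrays, the member median was 0.01 without centring, 0.14 after neighbour subtraction and 0.06 averaged per gene. Turned, it was 0.08 without centring, -0.02 on 4 of 4 arrays and -0.05 without replicate 4, and as deposited -0.08 without centring.

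Single members changed sign as follows, where dsx, CG2063, spin, Gbs-76A and Cyp4d8 were not among the values compared here and above. After neighbour subtraction Atf6 read -0.11 and CG12054 -0.12 at 12 hrs, SKIP 0.07, Atf6 0.20, Shab -0.04 and CG12054 0.01 in the difference between times, and Atf6 0.18 (forward) and 0.21 (turned) on the 7th day. Averaged per gene, Imp read -0.06, 0.02 and 0.08 at 12 hrs, on the 2nd day and in their difference. Without centring, on the 7th day, grk read 0.05, Atf6 0.19 and Shab 0.08 turned, and Shab -0.08 as deposited. Scaled, Atf6 read 0.01 turned. With 1 array left out in turn, the values at 12 hrs ran from -0.28 to 0.06 for Alms1b and from -0.05 to 0.47 for Shab, and Atf6 reached -0.0035 on the 2nd day. In the difference they ran from -0.24 to 0.03 for SKIP, from -0.26 to 0.08 for Alms1b (0.01 without 2nd day replicate 4) and from -0.25 to 0.27 for Shab (-0.11 without 2nd day replicate 4). On the 7th day they ran from -0.37 to 0.08 for grk and from -0.07 to 0.05 for Atf6 turned, and from -0.20 to 0.68 for sug as deposited. The cause was not tested.

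Over all features, calls appeared when 12 hrs replicate 4 was left out, which leaves replicate 3 alone (91 lower and 138 higher at 12 hrs, 82 and 54 in the difference), and without replicate 3 they were 3 and 2, and 1 and 1. A fit on the 2nd day's arrays alone called 13 lower and 8 higher, and scaling 1 of each. On the 7th day as deposited they were 27 and 2 without centring, 21 and 11 without replicate 2, and 16 and 2 without replicate 4. Turned, 1 was lower without replicate 2 and 1 without replicate 3. SAM at a false discovery rate of 0.23 called 71 lower as deposited and 1 higher turned, with 0 members among them. Deviations from the time means correlated with r = 0.052 between swapped arrays of the same replicate number, over 3791 features. The swapped arrays of each time correlated weakly themselves, so this value does not settle whether the numbers pair them. The replicate block gave 0 calls. Signal over background of single spots was not used, and 2 arrays per orientation limit the precision.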
